A study of Mus musculus with 24 samples.

Results

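Among the liver NK1.1+CD3e+ cells sequenced singly in this series, 163 carried Cd4 transcript without the transcripts of CD8α, of inhibitory Ly49 receptors or of the egress receptor S1pr1, and they are called Cd4 cells here. The rule kept cells of at least 10000 unique molecular identifiers (UMIs, each standing for a captured transcript). It then asked for a Cd4 value of at least 0.5 UMIs per 10000 and for Cd8a, S1pr1 and the sum of Klra1, Klra5, Klra7 and Klra9 each below 0.5. Low counts of the latter transcripts could remain, and other Ly49 genes were not part of the rule. Of 1735 cells in all, 1382 reached the depth minimum and 163 of those met the rule. All cells came from C57BL/6 livers of WT, Jα18-deficient or CD1d-deficient mice of 8 to 10 weeks, with no treatment named, and 8 libraries were made for each genotype. The count table names a cell only by genotype and running number, so each genotype was a single pool of cells and differences between genotypes were not tested. Which mouse or library a cell came from is not known here, and a spread between mice cannot be separated from one between genotypes.

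CD4 is the coreceptor that conventional helper T cells use together with MHC class II. Natural killer T (NKT) cells see lipids on the MHC-like molecule CD1d, and the type I NKT cells of the mouse, whose receptor is built with the Jα18 segment, are mostly either CD4+ or negative for both coreceptors. Mice without Jα18 lack type I NKT cells but can hold type II NKT cells, which use other receptors on CD1d, whereas mice without CD1d lack both. NK1.1+CD3e+ cells that remain in CD1d-deficient liver are therefore T cells that carry NK receptors without depending on CD1d.

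Cd4 cells made up 23.5% of the deep cells of the WT pool (123 of 523, exact 95% interval 19.9% to 27.4%) and 6.33% of those of the Jα18-deficient pool (40 of 632, 4.56% to 8.52%). None of 227 deep CD1d-deficient cells met the rule, which allows a share of up to 1.32% (3 cells of 227). The intervals of the 3 pools did not overlap. They cover the counting of cells only, not the spread between mice. The pools differed in depth as well, with a median of 51645 UMIs per deep WT cell, 58716.5 per Jα18-deficient cell and 39744 per CD1d-deficient cell.

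**Figure D1:**
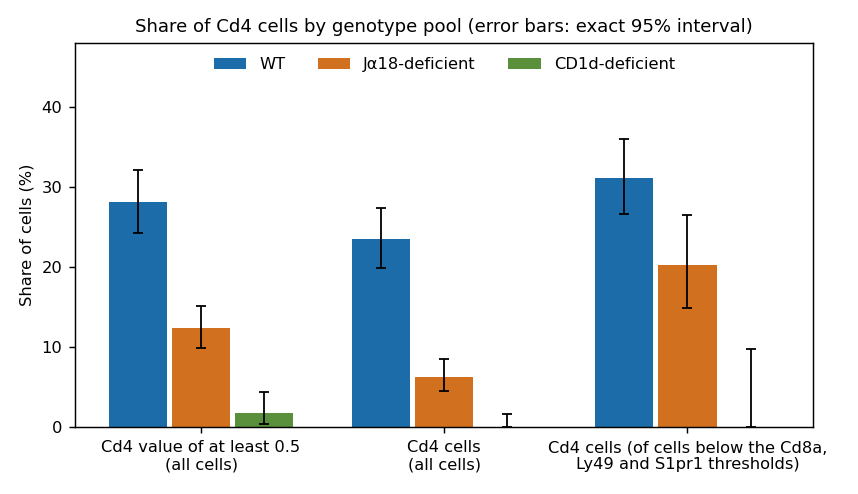
Share of cells (%, vertical axis from 0) in the WT, Jα18-deficient and CD1d-deficient pools that had a Cd4 value of at least 0.5 per 10000 UMIs, that met the whole rule, and that met the rule among cells below the Cd8a, Ly49 and S1pr1 thresholds. Bars are shares and whiskers exact 95% intervals for counting error. The order WT, Jα18-deficient, CD1d-deficient is the same in each set of bars, from 23.5% to 6.33% to 0 for the whole rule.

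The order of the pools was already present in Cd4 alone. A Cd4 value of at least 0.5 was reached by 28.1% of deep WT cells (147 cells, 24.3% to 32.2%), 12.3% of Jα18-deficient cells (78 cells, 9.88% to 15.2%) and 1.76% of CD1d-deficient cells (4 cells, 0.482% to 4.45%). The rule then removed 24, 38 and 4 of these. Ly49 transcript was the most frequent reason, in 19, 37 and 3 of them, while Cd8a removed 5, 3 and 2 and S1pr1 4, 3 and 0, with 4, 5 and 1 cells removed for more than a single reason. Ly49 genes encode receptors for MHC class I that are typical of NK cells. Cells at or above the Ly49 threshold were 12.9% of the Cd4-expressing WT cells and 23.7% of the WT cells below the Cd4 threshold, against 47.4% and 67.0% in the Jα18-deficient pool and 75% and 74.0% in the CD1d-deficient pool. The Ly49 threshold therefore set aside a larger part of the Jα18-deficient cells than of the WT cells, with or without Cd4. Among cells below the Cd8a, Ly49 and S1pr1 thresholds, 31.1% of 395 WT cells (26.6% to 36.0%) and 20.2% of 198 Jα18-deficient cells (14.8% to 26.5%) were Cd4 cells, so the intervals just failed to overlap. Only 36 CD1d-deficient cells lay below all these thresholds and none was a Cd4 cell, which allows a share of up to 8.33%. By depth, the Cd4 share among such cells in the WT and Jα18-deficient pools was 24.3% and 33.3% from 10000 to 20000 UMIs, 21.6% and 21.3% from 20000 to 40000, 39.1% and 15.4% from 40000 to 80000, and 32.2% and 20.2% above. The intervals of the pools overlapped in the shallow bins and above 80000 UMIs, and lay apart from 40000 to 80000 (30.9% to 47.8% against 6.88% to 28.1%).

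The 4 CD1d-deficient cells with Cd4 were each set aside for another transcript. A cell with 19 Cd4 UMIs had a summed Ly49 value of 0.54 per 10000, just past the threshold, and no Cd8a. A cell with 2 Cd4 UMIs had a Cd8a value of 0.709, and both cells with a single Cd4 UMI had high Ly49 values of 7.11 and 51.6, the former with Cd8a at 16.4. Only the cell with 19 Cd4 UMIs held more than a few Cd4 transcripts. With the summed Ly49 threshold at 1, 2 or 5 it alone joined, and the CD1d-deficient share was 0.441% at each.

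Cd4 lies on chromosome 6 from 124814710 to 124838239 on the minus strand (mm9). Values of Cd4 selected the cells and are given as a description. In the 123 WT Cd4 cells they ranged from 0.507 to 15.3 per 10000 UMIs with a median of 2.21, and in the 40 Jα18-deficient Cd4 cells from 0.695 to 13.9 with a median of 2.74. The median cell held 14 Cd4 UMIs in both pools, and 2 WT members and 1 Jα18-deficient member had a single Cd4 UMI. The lowest members lay at 0.507, 0.518 and 0.523 and the highest cells outside at 0.493, 0.487 and 0.474. Within 2-fold of the threshold lay 26 members, from 0.5 to 1, and 26 cells that were below the other thresholds, from 0.25 to 0.5. No sharp gap therefore separated Cd4 cells from the cells negative for both coreceptors (double negative cells, defined by the same rule with Cd4 below 0.5), and 52 of 272 WT and 30 of 158 Jα18-deficient double negative cells held a Cd4 UMI, against 0 of 36 in the CD1d-deficient pool.

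**Figure D2:**
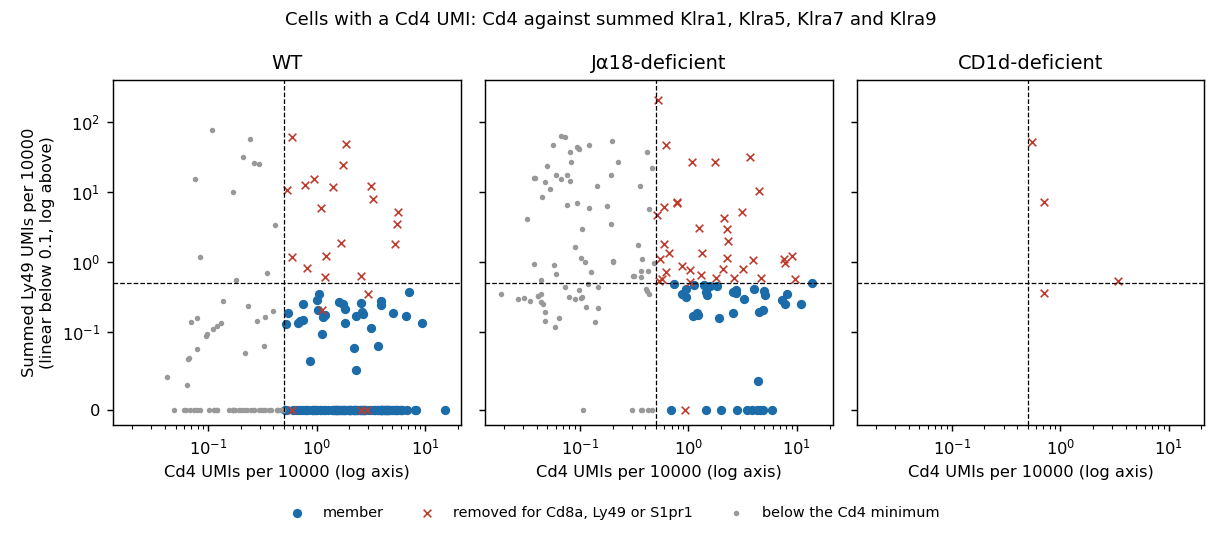
Cd4 value (horizontal, log axis) against the summed value of Klra1, Klra5, Klra7 and Klra9 (vertical, linear below 0.1 and log above), both in UMIs per 10000, for each deep cell with a Cd4 UMI in the 3 pools. Dashed lines are the thresholds of 0.5. Most WT members lie at a Ly49 value of 0, whereas the Jα18-deficient members and the cells removed there crowd on both sides of the Ly49 threshold.

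Ly49 transcript set the boundary of the class differently in the pools. In WT, 92 of 123 Cd4 cells had no UMI of the 4 Ly49 genes and the highest value was 0.376. In the Jα18-deficient pool, 30 of 40 Cd4 cells (75%) had such a UMI, the median was 0.266 and the highest value was 0.491, next to the threshold of 0.5. Cd4-expressing cells removed for Ly49 were mostly far above the threshold in WT, with 12 of 19 at 2 or more and a median of 5.87. In the Jα18-deficient pool 14 of 37 lay from 0.5 to 1 and 9 from 1 to 2, with a median of 1.23. Raising the threshold to 1, 2 or 5 moved the Jα18-deficient share to 8.23%, 9.65% and 10.3% and the WT share to 24.1%, 24.7% and 24.9%. The WT share stayed above the Jα18-deficient one at each threshold. Whether these low Ly49 values are expression by the cells or molecules from other cells was not tested.

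The sort was on NK1.1 and CD3e, so their transcripts check the sort and not the Cd4 class. A UMI of Cd3e, Cd3d or Cd3g, chains of the T cell receptor complex, was found in 100% of the Cd4 cells of both pools after thinning every cell to 10000 UMIs, and in 99.6% and 100% of WT and Jα18-deficient double negative cells. Klrb1c, which encodes NK1.1, was found in 87.8% of WT Cd4 cells and 92.5% of Jα18-deficient ones, and in 83.1% and 86.1% of double negative cells. Cxcr6, a chemokine receptor that holds NKT cells in liver sinusoids, had a median of 17.9 per 10000 UMIs in WT Cd4 cells and 11.6 in Jα18-deficient ones, with no cell at 0, and of 19.5 and 14.0 in double negative cells. These markers thus belonged to both classes. Zbtb16, the PLZF factor of NKT cells, was sparse, with a UMI in 15.4% of WT and 20% of Jα18-deficient Cd4 cells against 11.8% and 7.59% of double negative cells. Foxp3, the defining factor of regulatory T cells, was not detected in any of the 123 and 40 Cd4 cells, which allows up to 2.44% of WT and 7.5% of Jα18-deficient Cd4 cells with a UMI. Cd8b1 held 4 UMIs in WT and 6 in Jα18-deficient Cd4 cells. The T cell receptor genes themselves were not analysed here, so type I and type II cells cannot be told apart by receptor.

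Markers of other cell types were low in the Cd4 cells. The 9 myeloid markers summed to 81.4 CPM (UMIs scaled to a library of 1000000) in WT Cd4 cells, of which Lyz2 gave 80.5%, and to 8.48 in Jα18-deficient Cd4 cells, against 93.2 and 16.8 in double negative cells. In CD1d-deficient double negative cells they summed to 465, with Lyz2 in 97.2% of the cells. Lyz2, a myeloid lysozyme gene that T cells are not known to use, is given as a reference for shares of cells with a UMI. A background can differ between genes, so the share of Lyz2 does not set that of another gene. After thinning it was found in 23.6% of WT Cd4 cells and none of the 40 Jα18-deficient ones, and in 33.1% and 8.86% of double negative cells. In WT the Zbtb16 shares lay below those of Lyz2. In the Jα18-deficient pool the Zbtb16 share lay above that of Lyz2 in Cd4 cells and below it in double negative cells. How much of the Zbtb16 transcript is background was not tested. The 3 NK cell markers summed to 1.17 and 9.09 CPM in Cd4 cells and to 51.0 and 157 in all other cells of the pools. In double negative cells they summed to 16.2 and 9.71, so the Jα18-deficient Cd4 and double negative cells were close. Klra8 was at 0 in WT and Eomes at 0 in Jα18-deficient Cd4 cells. In WT and Jα18-deficient Cd4 cells hepatocyte markers summed to 28.6 and 34.7 CPM. All of the latter sum was Trf, with 68.6% in a single cell, and Alb, Apoa1, Apoa2, Ttr and Fgb were at 0 there. Endothelial markers summed to 9.47 and 1.82 CPM and B cell markers to 1.81 and 0.404. The 3 plasmacytoid dendritic cell markers summed to 185.5 and 38.2, of which Ccr9, also a T cell homing receptor, gave 83.9% in WT. Haemoglobin genes were at 0. As a check on the labels, Cd1d1 was at 0 UMIs in all CD1d-deficient cells, below a limit of 0.220 CPM, and at 23.3 and 2.83 CPM in WT and Jα18-deficient Cd4 cells.

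To ask what else distinguished the Cd4 cells, their UMIs were summed in each pool and compared with those of all other deep cells of that pool. Cd4 cells had far less transcript of the granzyme gene Gzma and of the NK receptor adaptors Fcer1g and Tyrobp, by over 8-fold each in both pools, and 6 of 23 NK receptor genes were lower. They had more of the Sca-1 gene Ly6a and of the cytokine gene Il4, with log2 fold changes of 0.99 and 1.45 and the larger ratio of each in the Jα18-deficient pool. With the WT and Jα18-deficient pools as the only replicates, edgeR's quasi-likelihood test called 8 genes higher (0.0768% of 10421 tested) and 20 lower (0.192%) at an adjusted p under 0.05. The 7 genes of the rule were not tested. The other cells include those set aside for Ly49, Cd8a or S1pr1, so genes that go with these are set in part by the rule. Without the pool as a term no gene was called (0, with 532 at an unadjusted p under 0.05, edgeR). With 2 pools the fit had 1 residual degree of freedom, and its spread was largely borrowed across genes.

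**Figure D3:**
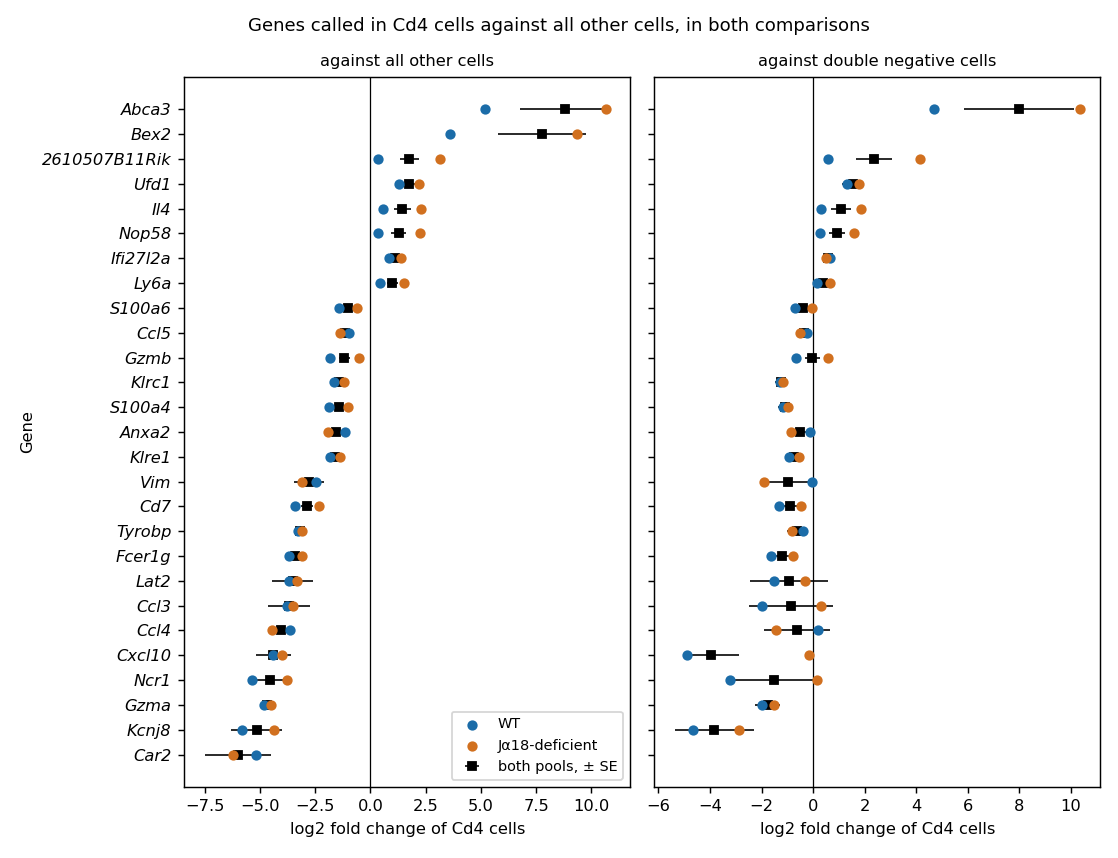
log2 fold change (horizontal) of 27 of the 28 called genes in Cd4 cells against all other cells (left) and against double negative cells (right), with the ratio in the WT pool, the ratio in the Jα18-deficient pool and the fitted value of both pools ± SE. Genes lower than in all other cells lie closer to 0 against double negative cells, for Gzma -4.66 on the left and -1.77 on the right. Bex2 and Car2 were not tested on the right, and the fitted values of Abca3 and Bex2, which rest on single cells, depend on the prior count.

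Cytotoxic granule genes were among the lower ones, with 2 of 13 tested called lower and none higher. Gzma (chromosome 13, 113884033 to 113891187) had 25.97 CPM in WT Cd4 cells against 794 in other WT cells, and 50.1 against 1412 in the Jα18-deficient pool. No Cd4 cell reached a high level: the highest value was 11.5 per 10000 in WT and 1.82 in the Jα18-deficient pool, while other cells reached 277 and 335. The log2 fold change was -4.66 ± 0.30 (SE, adjusted p = 1.81e-51, edgeR) with -4.82 in WT and -4.49 in the Jα18-deficient pool. Medians per cell were much closer, at 0.176 in Cd4 cells and 0.215 in other cells of WT and at 0.477 and 0.699 in the Jα18-deficient pool, so the difference in the sums lay in the high cells. Gzmb was less different, with 236 CPM in WT Cd4 cells against 906 and 550 against 981 in the Jα18-deficient pool (log2 fold change -1.17 ± 0.25, adjusted p = 0.0028, edgeR). Nkg7, a granule membrane gene, had a log2 fold change of -0.12 ± 0.18 (edgeR adjusted p = 0.999) and medians of 29.6 against 32.6 per 10000 in WT.

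NK receptors and adaptors were the group with the most calls, 6 of 23 tested lower and none higher, with a median log2 fold change of -1.60 beside -0.11 over all genes tested. Of the 23, 16 were lower in both pools, against 29.1% of all genes. The other cells kept the Ly49-high cells that the rule removed from the Cd4 cells, so lower NK receptor levels were set in part by the rule. Against double negative cells, which met the same Ly49 threshold, 0 of 20 tested were called and the median was -0.68. Fcer1g (chromosome 1, 173159703 to 173164496), an adaptor of activating receptors, had 46.1 CPM in WT Cd4 cells against 647, and 137 against 1482 in the Jα18-deficient pool (log2 fold change -3.41 ± 0.28). Tyrobp, the DAP12 adaptor, had a log2 fold change of -3.18 ± 0.28 and Cd7, a surface molecule of T and NK cells, -2.87 ± 0.25. Ncr1, the NK receptor NKp46, held only 9 UMIs in all 123 WT Cd4 cells and 44 in the 40 Jα18-deficient ones, with no cell above 0.347 and 0.684 per 10000, against up to 16.6 and 29.0 in other cells (log2 fold change -4.53 ± 0.74). Klre1 and Klrc1, lectin-like receptors of the NK gene complex on chromosome 6, had log2 fold changes of -1.60 ± 0.29 and -1.42 ± 0.26. The Ly49 gene Klra3, which the rule did not use, was not called and had a positive log2 fold change of 1.10 ± 0.45 (edgeR adjusted p = 0.778), with 73.2% of its UMIs in WT Cd4 cells in a single cell.

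Of 14 genes tested from the list of chemokines and their receptors, 3 were called lower, Ccl5, Ccl4 and Ccl3. Ccl5 (chromosome 11, 83339280 to 83344020) was found in every deep cell and was lower in Cd4 cells in sum, at 2602 CPM against 5432 in WT and 3173 against 10340 in the Jα18-deficient pool (log2 fold change -1.17 ± 0.18, adjusted p = 7.35e-08, edgeR). Its medians per cell were 22.4 against 26.3 per 10000 in WT and 24.8 against 59.7 in the Jα18-deficient pool. The inflammatory chemokines Ccl4 and Ccl3 had log2 fold changes of -4.04 ± 0.57 and -3.67 ± 0.94, from low levels of 8.83 and 2.13 CPM in WT Cd4 cells. Ccl4 kept its call in 10 of 11 other settings and Ccl3 in 3, with adjusted p for Ccl3 from 0.000261 to 0.999. Cxcl10, an interferon-induced chemokine outside that list, was also called and had a log2 fold change of -4.40 ± 0.79, but of the WT double negative UMIs 90.7% sat in a single cell, so its sums rest on few cells.

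Vim, a cytoskeletal filament gene, was lower, with a log2 fold change of -2.78 ± 0.67. Anxa2, S100a4 and S100a6, which encode a membrane-binding annexin and calcium-binding proteins, had log2 fold changes of -1.55 ± 0.34, -1.43 ± 0.31 and -1.02 ± 0.25. Also called lower were Kcnj8, a potassium channel gene, Car2, a carbonic anhydrase gene, and Lat2, a signalling adaptor gene, at 1.82 CPM or less in Cd4 cells for Kcnj8 and Car2 and at 1.70 and 6.26 for Lat2. Of 11 other settings, Anxa2 and Kcnj8 kept the call in 8, Car2 in 7, Vim and S100a4 in 6, S100a6 in 5 and Lat2, with an adjusted p of 0.0496 (edgeR), in 3.

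Among the higher genes, Il4 (chromosome 11, 53416484 to 53432171), a cytokine of type 2 responses for which NKT cells are known, was the only call of 15 cytokine genes tested. Its sum was 188 CPM in WT Cd4 cells against 134 in other cells, and 241 against 60.7 in the Jα18-deficient pool. The log2 fold change of 1.45 ± 0.37 (adjusted p = 0.035, edgeR) was thus unequal in the pools, 0.59 in WT and 2.31 in the Jα18-deficient pool, where a single cell held 37.3% of the Cd4 cells' Il4 UMIs. Of 11 other settings 1 kept the call, a Cd4 value of at least 1, with log2 fold changes from 1.14 to 1.57 and adjusted p from 0.036 to 0.896. Il4 UMIs per cell were spread widely, with quartiles of 0 and 2.67 per 10000 around a median of 0.374 in WT Cd4 cells and 47 of 123 cells at 0.

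Ly6a (chromosome 15, 74825308 to 74828064), which encodes Sca-1, and the interferon-induced gene Ifi27l2a were higher than in all other cells, and in many cells. Ly6a had a median of 7.50 per 10000 in WT Cd4 cells against 5.43 in other WT cells, and 6.70 against 0.633 in the Jα18-deficient pool (log2 fold change 0.99 ± 0.23, adjusted p = 0.011, edgeR). The Cd4 cells of both pools thus had like Ly6a levels, while the other cells differed. Double negative cells had Ly6a medians of 7.69 in WT, as high as in the Cd4 cells, and 3.31 in the Jα18-deficient pool. In WT the Ly6a level was thus shared by both classes. Ifi27l2a had medians of 4.30 against 1.88 in WT and 3.77 against 0.520 in the Jα18-deficient pool (log2 fold change 1.13 ± 0.25, adjusted p = 0.0037, edgeR). In double negative cells the Ifi27l2a medians were 2.97 in WT and 0.7885 in the Jα18-deficient pool. Ly6a kept its call in 5 and Ifi27l2a in 7 of 11 other settings.

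The other 5 higher calls rested on few deep cells. A single Jα18-deficient Cd4 cell of 568809 UMIs, 11.5% of all UMIs of the 40 cells, held 73.0% of the UMIs of Ufd1, 70.5% of those of 2610507B11Rik and 69.0% of those of the nucleolar gene Nop58. The deepest cell, of 598221 UMIs, held all 210 UMIs of Bex2, and another deep cell of 353013 UMIs held all 174 UMIs of Abca3, a lipid transporter gene, as well as the largest part of Il4. In WT 17 of 19 Abca3 UMIs lay in 1 cell and 5 of 6 Bex2 UMIs in another. Without the highest cell of each gene, pool and class, 0 genes were called higher and 9 lower (edgeR, 502 genes at an unadjusted p under 0.05), and 8 of these 9 were among the 28. Before thinning, Ufd1, which takes part in protein degradation, had UMIs in 42.3% of WT Cd4 cells against 32.0% of WT double negative cells. In the Jα18-deficient pool the shares were 35.0% against 41.8%. These shares thus went opposite ways in the pools, and so did median depth. Compared with double negative cells, Cd4 cells were deeper in WT and shallower in the Jα18-deficient pool.

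The lists of costimulatory receptors, T cell receptor signalling and lineage factors gave no call. Of 24 costimulatory and inhibitory receptor genes tested, 14 were higher in both pools and 4 lower in both, with a median log2 fold change of 0.30, and of 27 T cell receptor signalling genes 16 were higher and 2 lower in both, beside 24.2% and 29.1% of all genes. Cd28, the costimulatory receptor, had a log2 fold change of 0.91 ± 0.28 and Cd40lg, the helper ligand for CD40, 0.95 ± 0.33 (edgeR adjusted p = 0.265 and 0.559). Zbtb7b, which encodes ThPOK, the factor that directs CD4 over CD8 lineage choice in the thymus, went opposite ways in the pools, with 0.81 in WT and -1.23 in the Jα18-deficient pool, and its UMIs were in 13.8% and 15% of Cd4 cells after thinning against 8.46% and 11.4% of double negative cells. In Cd4 cells the Zbtb7b share was below the 23.6% of Lyz2 in WT and above that of Lyz2 in the Jα18-deficient pool. What part of the Zbtb7b UMIs is background was not tested. None of 12 lineage factors, 15 NKT factors, 20 cytokine receptors, 12 Bcl2 family genes, 16 SOCS and JAK-STAT genes, 21 immediate early genes or 19 cell cycle genes tested was called. The cell cycle genes had the lowest median of these lists, -1.11, with 10 of 19 lower in both pools.

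**Figure D4:**
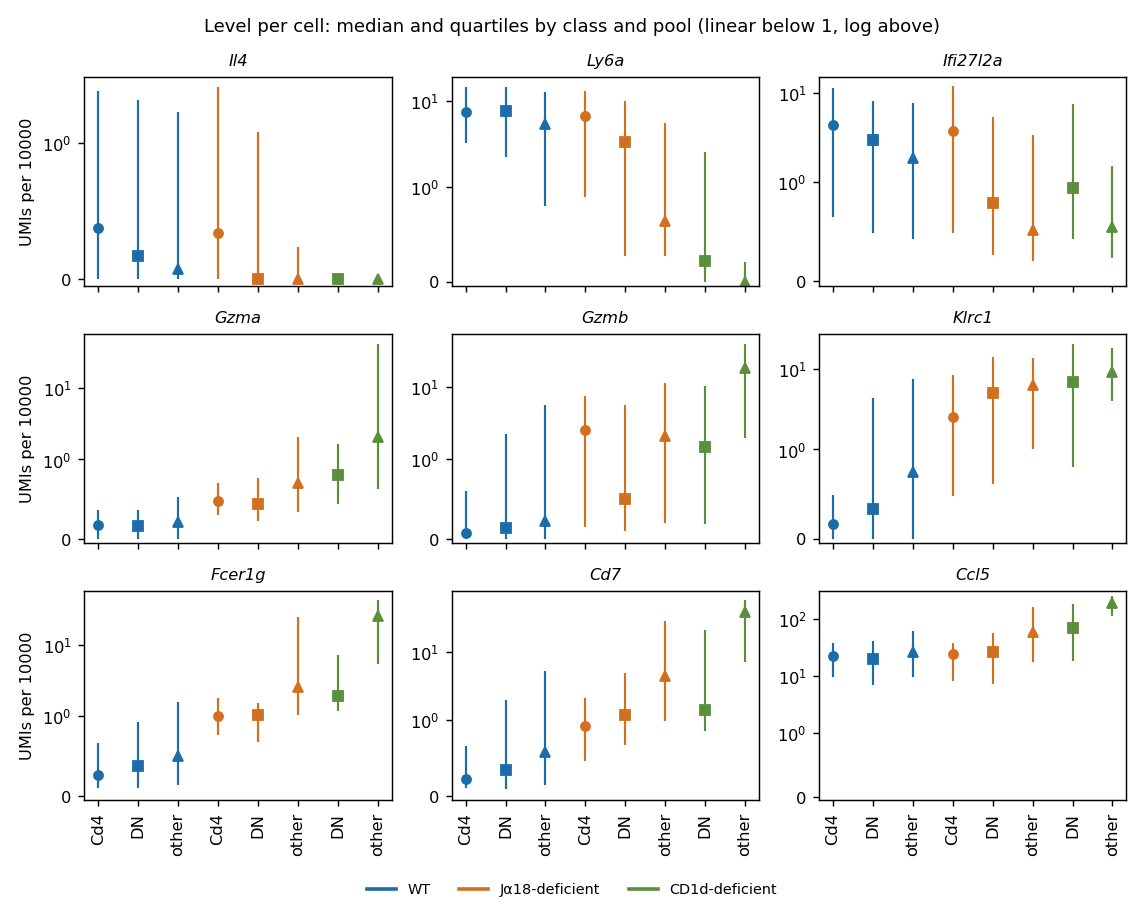
Level per cell in UMIs per 10000 (vertical, linear below 1 and log above) of 9 genes in Cd4 cells (circles), double negative cells (DN, squares) and all other cells (triangles, which include the double negative cells) of the 3 pools. Symbols are medians over cells and lines run from the lower to the upper quartile. In WT the Ly6a medians of Cd4 cells and double negative cells lie close together, at 7.50 and 7.69. In the Jα18-deficient pool they are 6.70 in Cd4 cells, 3.31 in double negative cells and 0.633 in all other cells.

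To separate Cd4 itself from the Ly49, Cd8a and S1pr1 thresholds, the Cd4 cells were set against the double negative cells, which met the same thresholds for those transcripts. Here no gene was called by edgeR, neither higher (0%) nor lower (0%) of 9942 tested, with 344 genes at an unadjusted p under 0.05. The lack of calls does not show that the classes were alike, since the test has little power with 2 pools. The median of all genes was -0.07. The other tools gave 11 calls with DESeq2 and 0 with limma-voom. On simulated sums of this comparison DESeq2 made 22 false calls, edgeR 3 and limma-voom 0. The median depth of the classes was 60105 against 52126 UMIs in WT and 56148 against 67873.5 in the Jα18-deficient pool. The differences seen against all other cells were smaller here, for Gzma -1.77 ± 0.48, Fcer1g -1.21 ± 0.37, Cd7 -0.89 ± 0.29 and Ccl5 -0.37 ± 0.13 (edgeR adjusted p = 0.999 for each). Gzmb lay on opposite sides in the pools, with -0.65 in WT and 0.59 in the Jα18-deficient pool.

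Klrc1 (chromosome 6, 129616033 to 129628991), which encodes NKG2A, an inhibitory receptor for the non-classical molecule Qa-1, came closest to a call. Its sum was 165 CPM in WT Cd4 cells against 420 in double negative cells, and 334 against 879 in the Jα18-deficient pool. The log2 fold change was -1.24 ± 0.23 (adjusted p = 0.535, edgeR) and nearly equal in the pools, -1.29 and -1.19. Per cell the median was 0.166 against 0.337 per 10000 in WT and 2.53 against 4.99 in the Jα18-deficient pool, and 34.1% against 44.5% and 72.5% against 77.2% of the cells had a UMI after thinning. It was called in 5 of 11 other settings, with adjusted p from 0.0039 to 0.999 and log2 fold changes from -1.27 to -0.66. In both pools the level in Cd4 cells was thus lower, and its quartiles overlapped those of the double negative cells.

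Other genes with a small unadjusted p were not called. S100a4 had a log2 fold change of -1.08 ± 0.30. Cxcl10 had a log2 fold change of -3.95 ± 1.07, with -4.91 in WT and -0.16 in the Jα18-deficient pool. On the higher side stood Ufd1 (1.53 ± 0.39), Cmya5, Chaf1a, Abca3 and Tsc22d1. The last 4 were found in at most 5 WT and 2 Jα18-deficient Cd4 cells each. Cmya5, a muscle protein gene, had 14.3 CPM in WT and 5.05 in Jα18-deficient Cd4 cells and no UMI in the double negative cells of either pool, and Chaf1a, a chromatin assembly gene, had 5.64 and 18.2 CPM against 0 and 0.125. No fold is given for these, since the fitted value depends on the prior count.

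UMIs of both cytokines for which NKT cells are known were found in Cd4 and in double negative cells. After thinning, an Il4 UMI was found in 42.3% of WT Cd4 cells (33.4% to 51.5%) and 40.1% of WT double negative cells (34.2% to 46.2%). In the Jα18-deficient pool the shares were 50% (33.8% to 66.2%) and 29.1% (22.2% to 36.9%), and in CD1d-deficient double negative cells 13.9%. The myeloid gene Lyz2 was in 23.6% of WT Cd4 cells (16.4% to 32.1%) and 33.1% of WT double negative cells (27.5% to 39.0%). It was in 0% and 8.86% of the Jα18-deficient ones, and in 88.9% of CD1d-deficient double negative cells. The Il4 interval of WT Cd4 cells lay above that of Lyz2, and in WT double negative cells the intervals of both genes overlapped. The CD1d-deficient Il4 share was below that of Lyz2. A background can differ between genes, so these positions do not tell Il4 expression from background, which was not tested. Between Cd4 and double negative cells, the WT Il4 shares lay within each other's intervals, and the Jα18-deficient Il4 intervals overlapped slightly. Before thinning the Il4 shares were 61.8% and 57.7% in WT and 60% and 46.2% in the Jα18-deficient pool. For Ifng the thinned shares were 25.2% (17.8% to 33.8%) and 24.6% in WT, beside 23.6% and 33.1% for Lyz2, and 20% and 13.9% in the Jα18-deficient pool. Both cytokines together were found in 11.4% and 15% of the Cd4 cells against 11.8% and 6.96% of the double negative cells. The Il4 sum against double negative cells differed by a log2 fold change of 1.08 ± 0.40 (edgeR adjusted p = 0.999), again unequally, 0.32 in WT and 1.85 in the Jα18-deficient pool.

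Costimulatory genes were higher in both pools for 12 of 23 tested and lower in both for 0, against 24.2% and 27.1% of all genes, with a median log2 fold change of 0.30 and no call. Cd28 had medians of 2.79 against 2.70 per 10000 in WT and 2.67 against 0.468 in the Jα18-deficient pool. The 20 NK receptor genes tested had a median of -0.68, with 8 lower and 3 higher in both pools. T cell receptor signalling genes were higher in both pools for 12 of 27. Every list had 0 calls in this comparison. Cells at or above the Cd8a threshold and below those of Cd4, Ly49 and S1pr1 numbered 3 in WT and 9 in the Jα18-deficient pool, too few for a test. The 9 Jα18-deficient Cd8a cells had 2291 CPM of Gzma against 50.1 in the Cd4 cells and 2391 of Fcer1g against 137, but a single Cd8a cell held 92.5% of the former UMIs and a single cell 63.7% of the latter. They had 7.61 CPM of Il4 from 7 UMIs against 241, and 116 of Ly6a against 1111, with 48.6% of these Ly6a UMIs in 1 cell.

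**Figure D5:**
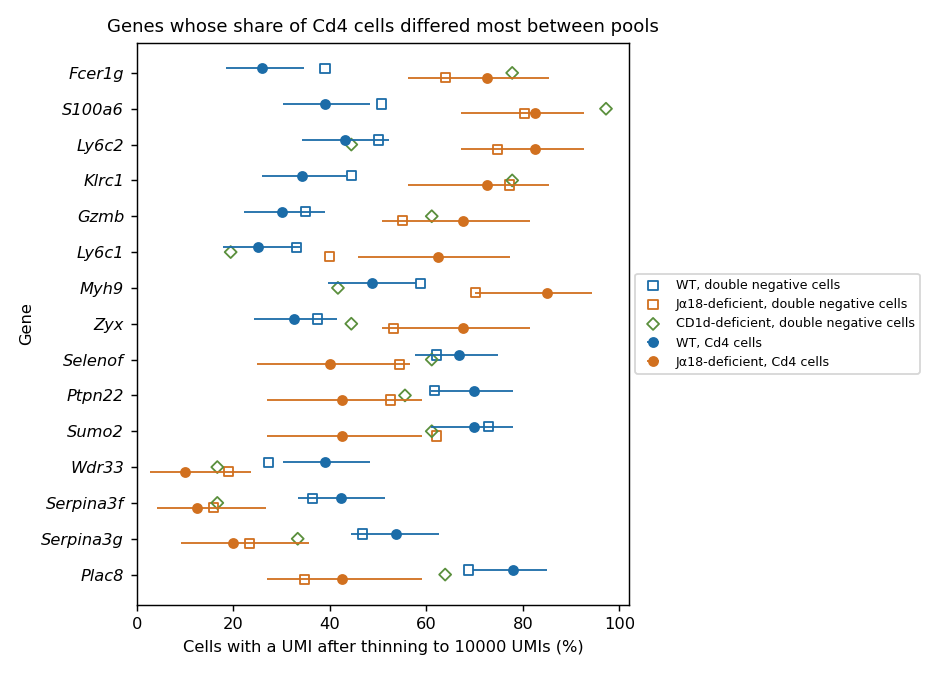
Share of cells with a UMI after thinning to 10000 UMIs (%, horizontal) for the 8 genes whose share was highest and 7 of the 8 whose share was lowest in Jα18-deficient relative to WT Cd4 cells. Filled circles are Cd4 cells with exact 95% intervals for counting error and open symbols double negative cells of the 3 pools. For these genes, picked for their large differences, the double negative cells shift between the WT and Jα18-deficient pools in the direction of the Cd4 cells, for Fcer1g from 39.0% to 63.9%.

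Between the genotypes the Cd4 cells are described without a test, since each genotype was a single pool. Of 5187 genes, 834 were over 2-fold higher (16.1%) and 937 over 2-fold lower (18.1%) in Jα18-deficient than in WT Cd4 cells. Of these 834 and 937 genes, 1008 had the same sign in double negative cells and 236 were over 2-fold in the same direction there. Most of these genes were thus not over 2-fold apart in the same direction in double negative cells. Whether signs matched more often than among all compared genes was not tested, so the counts do not show a shared difference. By the size of the ratio, the 10 highest were Fchsd1, Pwwp2a, Pogk, Pus7, Vaultrc5, Dapk3, Ccdc136, C1qtnf4, Gpn2 and Mtmr9, and in 9 of them the highest Jα18-deficient cell held 45.5% to 90.9% of the UMIs. The exception was Mtmr9 (chromosome 14, 64142453 to 64162790), a myotubularin-related gene, with 470 UMIs in 20 of 40 Jα18-deficient Cd4 cells (50%) and 42 UMIs in 3 of 123 WT ones (2.44%). It was at 94.9 against 4.47 CPM in Cd4 cells, at 168 against 1.99 in double negative cells, and at 4.55 in CD1d-deficient double negative cells. The double negative cells of the Jα18-deficient pool thus held Mtmr9 as well.

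The 10 lowest were Fh1, Actr8, Gm9199, Elp5, Dimt1, Crem, Lrch3, Chchd5, Mbd2 and Ms4a6c. Fh1, the fumarate hydratase gene, had 838 UMIs in 40 of 123 WT Cd4 cells and 4 UMIs in 4 of 40 Jα18-deficient ones, at 89.2 and 0.808 CPM. In double negative cells Fh1 was at 63.7 and 27.2 CPM. Of these 10 genes, 6 were lower in the Jα18-deficient double negative cells as well and 4 were higher.

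Ranked by the share of cells with a UMI after thinning, a choice made after values were seen, the genes on the Jα18-deficient side were led by Fcer1g. It was found in 72.5% of them (56.1% to 85.4%) against 26.02% of WT Cd4 cells (18.5% to 34.7%), Klrc1 in 72.5% against 34.1%, and Gzmb in 67.5% against 30.1%. Ly6c2, a surface marker of memory and effector T cells, was found in 82.5% against 43.1%, with medians of 11.1 and 0.372 per 10000 and sums of 1833 and 325 CPM. The others of the 8 on this side were S100a6, Ly6c1, Myh9 and Zyx. The levels behind these shares differed: the median of Fcer1g in Jα18-deficient Cd4 cells was 1.02 per 10000, close to the 1.05 of the double negative cells and below the 2.56 of all other cells of the pool, with an upper quartile of 1.79 in Cd4 cells and 24.3 in those other cells, whereas the Ly6c2 median was above that of the double negative cells, 1.95. Gzma was alike in this respect to Fcer1g, with a UMI in 90% of Jα18-deficient Cd4 cells before thinning and no value above 1.82. What part of such low values is transcript from other cells of the pool, where these genes are abundant, was not tested.

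Plac8, Serpina3g, Serpina3f, Wdr33, Ptpn22, Sumo2 and Selenof were found more often in WT Cd4 cells. Plac8 was in 78.0% of WT and 42.5% of Jα18-deficient Cd4 cells, with medians of 3.46 and 0.458 per 10000. The protease inhibitor genes Serpina3g and Serpina3f were in 53.7% and 42.3% of WT Cd4 cells against 20% and 12.5% of Jα18-deficient ones. Double negative cells showed the same order for these genes, for Plac8 68.8% and 34.8%. For Ly6a and Ifi27l2a, by contrast, the Cd4 cells of both pools had close sums, 1090 and 1111 CPM of Ly6a and 899 and 762 of Ifi27l2a.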

How the data were processed

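The deposited file held UMI counts of 24447 genes in 1735 manually picked single cells sorted as NK1.1+CD3e+. Per the labels and the study's methods, the authors trimmed reads with cutadapt 1.15, aligned them to mm9 with TopHat2 2.0.12 and counted UMIs per gene with HTSeq 0.10.0. The columns of each genotype were as many as the cells the study kept. The study states a minimum of 10000 transcripts per cell, but 353 of the 1735 deposited cells held fewer than 10000 UMIs. The reason for this difference is not known here. The columns carry no library, so counts were summed per genotype pool and cell class. The members, comparators and gene lists were chosen with earlier results of these data known. A pool entered a test with at least 5 cells in both classes, which left WT and Jα18-deficient. The sums were tested with edgeR 4.0.16 in R 4.3.3 (TMM, filterByExpr, glmQLFit and glmQLFTest, pool and class as terms, Benjamini-Hochberg adjustment over all genes tested). A call needed an adjusted p below 0.05 together with a ln fold change beyond 0.25 in either direction, as in the study's thresholds. DESeq2 1.42.0 and limma 3.58.1 were alternatives. The edgeR fit was tested on simulated sums with 200 changed genes, where it found few or none of the 2-fold changes and a minority of the 4-fold ones. On the sums against all other cells and against double negative cells, DESeq2 made 53 and 22 false calls and edgeR 4 and 3. Named were the 15 called genes of largest log2 fold change in each direction that had the same sign in both pools and at least 100 UMIs, with the other calls added after their values were seen, or, where fewer than 5 were called, the 5 of smallest unadjusted p. Genes of the lists could also be named. Between genotypes the rule took the 10 largest ratios in each direction among genes with 100 UMIs and a UMI in 20% of the members of a pool. Shares have exact Clopper-Pearson and sums exact Poisson 95% intervals, and limits for a count of 0 are 3 counts. All of these cover counting error only. For shares of cells with a UMI, each deep cell was thinned to 10000 UMIs at random (seed 20). No doublet caller was run, and the 10% of cells with the most UMIs in each pool were left out as an alternative. No pair of cells had identical counts. Gene positions are those of the GENCODE annotation of mm9, printed as the span of the whole gene, exons and introns included. Some genes are not reported here.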

Additional observations from a re-analysis of the deposited data

Results flagged for a closer look

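Cells under the depth minimum were outside the comparisons above. In WT, 5 of 100 such cells (5%, exact 95% interval 1.64% to 11.3%) met the Cd4, Cd8a, Ly49 and S1pr1 thresholds, and each held 1 to 5 Cd4 UMIs. They are named only because more than the 3 cells that a count of 0 allows were seen, and their share does not show that shallow cells express Cd4. The shares were 2.15% of 93 Jα18-deficient cells, each with 1 Cd4 UMI, and 1.88% of 160 CD1d-deficient cells, with 1 to 3. Below 10000 UMIs a single UMI exceeds every threshold of the rule.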

How the results depend on the processing

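Against all other cells, 28 genes were called. The count was 124 with limma-voom (21 of the 28), 11 with limma on the mean of ln values (10), 15 without the deepest 10% of cells (13), 9 without each gene's highest cell (8) and 0 with no pool term, where 532 genes had an unadjusted p under 0.05. It was 35 with DESeq2 (20 of the 28), 27 with no filter on low counts, 23 in cells of at least 20000 UMIs, 19 in thinned cells, 24 at a Cd4 value of at least 1 and 31 with a summed Ly49 value below 2. Gzma, Fcer1g, Tyrobp, Cd7 and Ccl4 kept the call in 10 of 11 alternatives, all but the fit with no pool term. None of the 28 genes changed direction in an alternative that could be computed. The split of calls was 8 higher and 20 lower, and 0 higher and 15 lower without the deepest 10%, 0 and 9 without each gene's highest cell. Against double negative cells, 0 genes were called, and the count was 11 with DESeq2, 4 with no filter, 1 in cells of at least 20000 UMIs (Klrc1), 2 at a Cd4 value of at least 1, 2 without the deepest 10% and 5 with a summed Ly49 value below 2. Ufd1 reversed, to -0.14 on the log2 scale, without the deepest 10% of cells. The causes were not tested. The share of Cd4 cells moved to 19.5% in WT at a Cd4 value of at least 1, and in the Jα18-deficient pool to 4.43% in thinned cells, 9.65% with a summed Ly49 value below 2 and 10.28% below 5. The Ly49 and highest-cell settings were chosen after seeing the data. No paired analysis was possible because the columns carry no replicate number. Leaving out a pool leaves no residual degree of freedom, so each pool's own ratio is given instead, and the comparison with Cd8a cells was not run since only the Jα18-deficient pool had 5 cells in both classes. In cells under 20000 UMIs a single UMI passes a threshold of 0.5.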
